A study of Mus musculus with 8 samples.

Results

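Cholesterol genes were followed through LIN28A-bound RNA, poly(A) RNA and ribosome footprints of mouse embryonic stem cells. The set was defined by gene symbol: 28 genes of cholesterol synthesis, its control, and uptake, storage and export. It was chosen with earlier results of these data known. Of these, 27 had a row in at least 1 of the 3 deposited tables, out of 16458 transcripts in all. Rows were found for 27 in the poly(A) table, 25 in the CLIP table and 24 in the footprint table. Tm7sf2 was not analysed here, and Msmo1 appears under its older symbol Sc4mol. The genes fell into 7 enzymes that work in the cytosol, 11 enzymes anchored in the endoplasmic reticulum (ER) membrane, 5 regulators, and 4 genes of uptake, storage and export.

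All 8 libraries came from A3-1, a mouse embryonic stem cell line grown in serum and LIF. CLIP-seq, the sequencing of RNA crosslinked by UV light to a protein and then immunoprecipitated, was done for the RNA-binding protein LIN28A with 3 antibodies (35L33G and 2J3, both monoclonal, and a polyclonal), 1 library each, in cells for which no siRNA is listed. Poly(A) RNA was sequenced from untreated cells and from cells given siRNA against luciferase (siLuc) or against Lin28a (siLin28a) for 48 h, and ribosome-protected fragments (footprints) from siLuc and siLin28a cells, with 1 library per condition. The siLin28a duplex, shown because every siRNA comparison rests on it, was listed with these strands, 5′ to 3′ and without their overhangs.
Strand 1: auguucuucccuuuuggcc
Strand 2: ggccaaaagggaagaacau

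Library totals were 7475174 to 9605641 counts for poly(A) RNA, 7698479 to 8027670 for CLIP, and 7570209 (siLuc) and 5980673 (siLin28a) for footprints. Lin28a mRNA stood at 465 CPM (counts scaled to a common library total) in untreated cells, 354 with siLuc and 118 with siLin28a, so that 33.4% of the siLuc level remained; its footprints kept 25.7%. All 10 embryonic stem cell markers were detected, with a summed level of 5406, 5491 and 6624 CPM in untreated, siLuc and siLin28a cells. The summed levels were 5.18, 7.63 and 18.2 CPM for the 3 mesoderm markers and 10.3, 13.5 and 26.3 CPM for the 3 neuroectoderm markers, highest in the siLin28a library. Among the latter Pax6 was lowest there, on 8, 11 and 6 counts in untreated, siLuc and siLin28a cells. The 6 primitive endoderm markers summed to 3.08 to 4.79 CPM, and the 4 fibroblast markers measured of 8 to 13.1 to 27.6 CPM, lowest in the siLin28a library. What part these differences have in the results below was not tested.

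Cholesterol is built from acetyl-CoA. Cytosolic enzymes make the mevalonate-derived isoprenoid farnesyl diphosphate, and enzymes of the ER membrane join farnesyl units into squalene, close it into lanosterol and convert that sterol to cholesterol. The SREBP transcription factors, encoded by Srebf1 and Srebf2, are made as ER membrane precursors. When sterols run low their escort Scap carries them to the Golgi for cleavage, whereas with ample sterol the Insig proteins hold Scap in the ER. Cholesterol taken up with lipoproteins leaves the lysosome through Npc2 and Npc1, is stored as ester by Soat1, and leaves the cell through Abca1.

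On the authors' RPKM scale, which corrects for length and depth, the 11 ER membrane enzymes had a median level of 35.6 in untreated cells, from 6.91 for Hsd17b7 to 132 for Lbr. The 7 cytosolic enzymes had a median of 24.4 and reached 58.8 (Pmvk). All 10216 transcripts with 50 or more untreated counts had a median of 16.1. The cytosolic range started at 0.0658, for Hmgcs1, the first committed enzyme of the mevalonate route. Its transcript (NM_145942) was placed by the authors on the unplaced contig 13_random of mm9, 308620 to 326235, and received 2, 0 and 1 counts in the 3 poly(A) libraries. Expression of Hmgcs1 could therefore not be read from these tables.

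In LIN28A CLIP the ER membrane enzymes and the cytosolic enzymes lay on opposite sides of the input. Of 11 ER membrane enzymes, 7 were enriched, 2 were depleted and 2 did not pass the test, with a median log2 enrichment of 1.00, a 2.00-fold excess over untreated poly(A) RNA. Of the 5 cytosolic enzymes in the CLIP table, 0 were enriched, 3 were depleted and 2 did not pass, with a median of −1.47. All 4 genes of uptake, storage and export were enriched (median 1.59), and among the 5 regulators 1 was enriched and 4 did not pass (median 0.21). The median of all 7820 transcripts was −0.03. A call means an adjusted p under 0.05 in edgeR's quasi-likelihood test of the 3 CLIP libraries against the single untreated poly(A) library. In all, 12 of 25 cholesterol genes were enriched, where 34.6% of all transcripts were, and 5 were depleted, where 33.3% were.

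The difference between the ER and cytosolic medians was 2.47 on the log2 scale. It was 2.89 with antibody 35L33G, 1.81 with 2J3 and 2.44 with the polyclonal, and the classes kept this order with each antibody. The classes overlapped: Lss and Fdft1, both in the ER group, lay below the cytosolic genes Pmvk and Fdps. Transcripts of the cytosolic enzymes were shorter (median exon length 1659 bases against 2816 for the ER group and 3041.5 for all transcripts), and their part in the difference was not tested. No control immunoprecipitation was among the libraries, and whether the 3 CLIP libraries came from separate cultures is not stated, so the p-values rest on the spread from antibody to antibody, and that spread may be technical only.

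**Figure D1:**
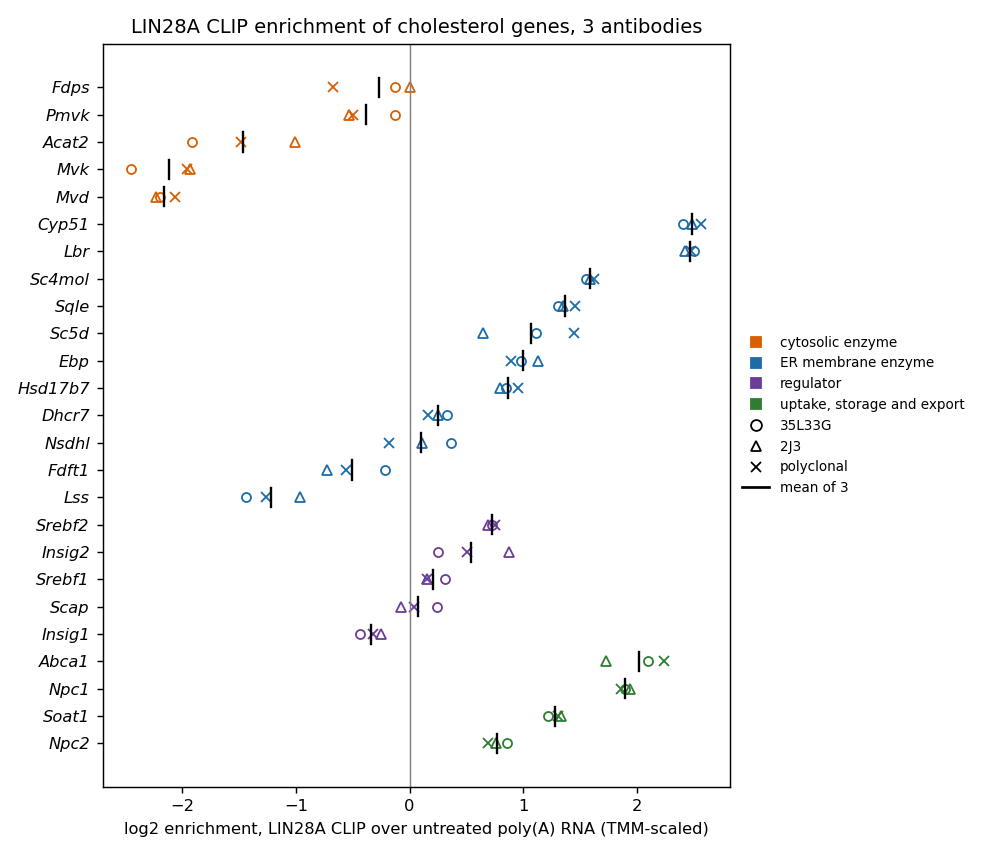
Log2 enrichment in LIN28A CLIP over untreated poly(A) RNA (x axis, TMM-scaled) for the 25 cholesterol genes in the CLIP table, grouped by class. Each symbol is 1 antibody and the black bar their mean. Every cytosolic mean lies below 0, while Cyp51 and Lbr, both ER membrane enzymes, lie near 2.5.

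The first cytosolic steps were among the most depleted. Acat2 here is acetoacetyl-CoA thiolase, which joins acetyl units (NM_009338, chr17:13135908-13153591, mm9); it had 147, 278 and 204 CLIP counts with 35L33G, 2J3 and the polyclonal, against 822 in the untreated input, and a log2 enrichment of −1.47 ± 0.45 (SD, n = 3; adjusted p = 9.44e-05, edgeR). Mvk, mevalonate kinase (NM_023556, chr5:114894315-114910599), had 42, 61 and 61 CLIP counts against 344. All 3 antibodies placed it far below the input, between −2.45 and −1.93, and Mvd, the mevalonate diphosphate decarboxylase (NM_138656, chr8:124957496-124967322), was the lowest of the 25 genes. Mvd had 80, 79 and 90 CLIP counts against 545 in the input, a log2 enrichment of −2.16 ± 0.09 (SD, n = 3; adjusted p = 8.85e-06, edgeR). Its 3 libraries lay close together.

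Pmvk, the kinase between Mvk and Mvd, did not pass (−0.39 ± 0.22, SD, n = 3; adjusted p = 0.147, edgeR), nor did the farnesyl diphosphate synthase Fdps (−0.26 ± 0.36, SD, n = 3; adjusted p = 0.569, edgeR). The value of Fdps depends on how its reads were tallied. The untreated library gave it 276 counts in the poly(A) table, whereas a poly(A) column carried in the CLIP table, whose header names no condition, gave it 699, and with this as input Fdps was depleted at −1.62 (adjusted p = 3.11e-05, edgeR). Idi1, the isopentenyl diphosphate isomerase, had no row in the CLIP table.

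The squalene and lanosterol steps of the ER were split. Squalene epoxidase, Sqle (NM_009270, chr15:59146647-59162748), an oxygen-dependent and often rate-limiting enzyme, had 2723, 2845 and 3126 CLIP counts against 1638 in the input and a log2 enrichment of 1.37 ± 0.08 (SD, n = 3; adjusted p = 6.43e-10, edgeR). The lanosterol synthase Lss (NM_146006, chr10:75994372-76016679), which follows it, had 332, 466 and 385 against 1334, and was depleted at −1.22 ± 0.24 (SD, n = 3; adjusted p = 1.46e-05, edgeR). Consecutive enzymes of the route thus lay on opposite sides of the input in every library. The squalene synthase Fdft1, at the start of the ER steps, was depleted at −0.50 ± 0.26 (SD, n = 3; adjusted p = 0.042, edgeR). That call ended without the 2J3 library (adjusted p = 0.114), without the polyclonal library (adjusted p = 0.0501) and with DESeq2 (adjusted p = 0.0793).

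Enrichment was greatest for the sterol enzymes Cyp51 and Lbr. Lanosterol demethylase, Cyp51 (NM_020010, chr5:4080674-4104697), had 3594, 3846 and 4137 CLIP counts against 1004 in the input, which gave 2.49 ± 0.08 (SD, n = 3; adjusted p = 5.9e-14, edgeR). Lbr (NM_133815, chr1:183745446-183772532) is the lamin B receptor, a protein of the inner nuclear membrane and ER that also acts as a sterol reductase, and it had 16602, 15934 and 16746 CLIP counts against 4344. Its log2 enrichment was 2.47 ± 0.04 (SD, n = 3; adjusted p = 8.62e-17, edgeR), which differed from that of Cyp51 by less than the spread between antibodies. The sterol methyl oxidase Sc4mol (NM_025436, chr8:67196942-67212375) followed with 1749, 1814 and 1889 counts against 886, at 1.58 ± 0.03 (SD, n = 3).

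The other sterol enzymes were closer to the input. The desaturase Sc5d was at 1.07 ± 0.40, the isomerase Ebp at 1.00 ± 0.12 and the ketoreductase Hsd17b7 at 0.87 ± 0.08 (SD, n = 3 each), and all 3 passed the test. Sc5d rested on 149 input counts, and its call ended without the polyclonal library (adjusted p = 0.0549, edgeR). Dhcr7, which makes cholesterol from its last precursor in one branch of the route, was at 0.25 ± 0.08 and the decarboxylating dehydrogenase Nsdhl at 0.10 ± 0.27 (SD, n = 3 each), and neither passed. Scaled by total counts in place of TMM, every value fell by 0.37: Dhcr7 and Nsdhl then lay at −0.12 and −0.25, Sc5d and Hsd17b7 no longer passed, and 10 of the 25 genes were enriched and 7 depleted (all transcripts, 1984 and 3605). Nsdhl also changed sign, to −0.03, without the 35L33G library.

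Regulators lay near the input. Srebf2, the SREBP gene whose protein mainly drives cholesterol synthesis (NM_033218), had 4191, 4155 and 4408 CLIP counts against 3767 and was the only regulator called, at 0.72 ± 0.03 (SD, n = 3; adjusted p = 2.94e-07, edgeR). Srebf1 was at 0.21 ± 0.09, Scap at 0.07 ± 0.16 and Insig1 at −0.34 ± 0.09 (SD, n = 3 each), and none of these passed. Insig2 was at 0.54 ± 0.31 (SD, n = 3; adjusted p = 0.0501, edgeR), just outside the threshold; it passed without the 35L33G library (adjusted p = 0.0279, edgeR) and without the polyclonal (adjusted p = 0.0297, edgeR). Scap and Srebf1 turned to −0.29 and −0.16 when scaled by total counts, and Scap to −0.02 without the 35L33G library.

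Export and storage genes were enriched without exception among the 4. The exporter Abca1 (NM_013454, chr4:53043661-53172767), a pump that loads cholesterol onto apolipoproteins, had 194, 152 and 220 CLIP counts against an input of 67, at 2.02 ± 0.26 (SD, n = 3; adjusted p = 0.000481, edgeR). Npc1, the membrane protein of lysosomal cholesterol export (NM_008720, chr18:12348203-12394895), had 2696, 2808 and 2694 against 1071, at 1.90 ± 0.04 (SD, n = 3; adjusted p = 6.35e-12, edgeR). The ER esterifying enzyme Soat1 was at 1.28 ± 0.06 and the soluble lysosomal carrier Npc2 at 0.77 ± 0.08 (SD, n = 3 each). All 3 antibodies lay above the input for each of these genes.

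LIN28A tags of most ER membrane enzymes lay further toward the 3′ UTR than their poly(A) reads. The share of coding counts, among coding plus 3′ UTR counts, had a median of 49.6% in CLIP and 67.4% in the poly(A) reads listed beside them for these 11 genes, and 8 of the 11 were lower in CLIP. Over all 7367 transcripts with such counts the medians were 69.5% and 73.1%, and 4246 were lower in CLIP. The condition of those poly(A) reads is not named in the table. For the 5 cytosolic enzymes they were 67.2% and 68.1%, with 3 of 5 lower in CLIP. Taken gene by gene, the median difference between CLIP and poly(A) shares was −13.6 percentage points for the ER enzymes. It was −12.1 for the cytosolic ones and −2.16 for all transcripts. The cytosolic genes were Fdps (−27.3), Mvd (−22.8), Mvk (−12.1), Acat2 (0.31) and Pmvk (8.43). The poly(A) tally of Fdps differed between tables, and Mvk and Mvd had only 160 and 247 CLIP counts over all antibodies. Whether the lower coding share was particular to the ER group cannot be read from so few genes.

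Single genes spanned almost the whole range. Hsd17b7 had 14.2%, 19.3% and 7.85% of its CLIP counts in the coding sequence with 35L33G, 2J3 and the polyclonal, against 37.9% of its poly(A) counts. Sc5d had 48.4%, 36.5% and 32.6% against 75.6%, and the regulator Insig1 had 23.8%, 25.9% and 20.8% against 50.8%. For these genes all 3 antibodies lay below the poly(A) value. Sqle was at 87.9% ± 0.71 (SD, n = 3) against 88.0%, and Scap, at 98.8% ± 2.02 (SD, n = 3) against 98.3%, had almost no 3′ UTR tags. Fdft1 and Nsdhl went the other way, at 94.7% ± 3.05 against 89.3% and 81.9% ± 6.09 against 66.4% (SD, n = 3 each).

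**Figure D2:**
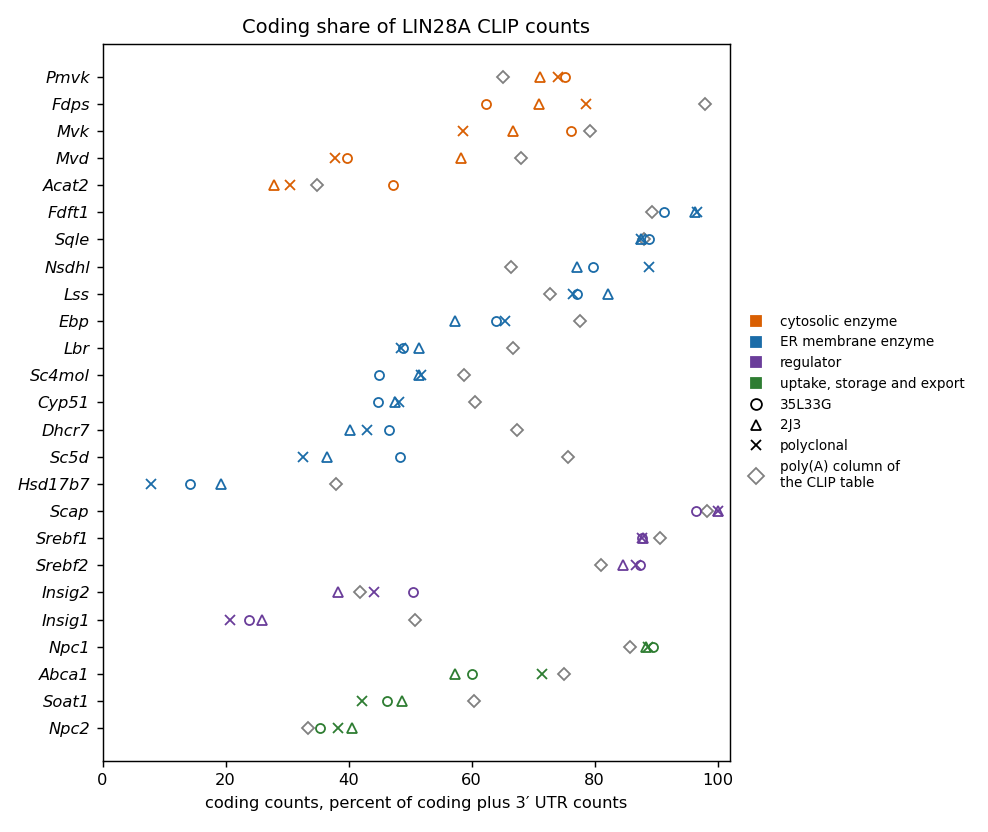
Coding counts as a percentage of coding plus 3′ UTR counts (x axis) for the 25 cholesterol genes, by antibody (coloured symbols) and in the poly(A) reads listed beside them (grey diamonds). Most blue symbols, the ER membrane enzymes, lie left of their diamond, with Fdft1, Nsdhl and Lss to the right of it.

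After Lin28a siRNA the mRNAs of the ER membrane enzymes were lower as a group. All 11 lay below their siLuc level, with a median log2 difference of −0.45, against −0.0018 for all 8859 transcripts with 200 or more counts over both libraries. All 11 also lay below the untreated level (median −0.46); both comparisons share the siLin28a library. Between siLuc and untreated cells, neither of which had Lin28a siRNA, 6 of the 11 were higher and 5 lower (median 0.05), and 0 of 24 cholesterol genes passed 1.5-fold (3.31% of all transcripts were that much higher and 4.46% lower). The 5 cytosolic enzymes that passed the count filter had a median of −0.03 against siLuc and −0.04 against untreated, with 2 above and 3 below 0 in each.

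Of all 8813 transcripts measured in both comparisons, 3195 lay below both references, so a gene below both is common in these libraries. Each condition was 1 library, so no difference has a replicate check, intervals cover counting error only, and less RNA per cell cannot be told apart from fewer cells that make it. The gap between the classes depended on the tally: with the footprint table's poly(A) counts, which follow coding reads more closely, the cytosolic median was −0.33 and the difference between classes shrank from −0.41 to −0.09. That cytosolic median took in Idi1 (−0.35), which had failed the count filter, and Fdps went from −0.03 to −0.36. Within the poly(A) table the difference was −0.39 without Fdps, Idi1 and Fdft1, whose tallies differed between tables. With the footprint table's tally the ER median was −0.42, but 7 of 10 ER enzymes, not all, lay below siLuc, with Dhcr7 (0.03), Ebp (0.06) and Hsd17b7 (0.11) above. That tally put 3 cholesterol genes at least 1.5-fold lower (Sc4mol, Insig2 and Sqle), where 4.92% of all transcripts were.

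Past 1.5-fold against siLuc were 3 of the 25 cholesterol genes that passed the count filter: 2 lower, where 4.5% of all transcripts were, and 1 higher, where 7.62% were. Both lower genes encode ER membrane enzymes. Sc4mol stood at 95.6 CPM in untreated cells, 107 with siLuc and 61.8 with siLin28a, so that the siLin28a library was lowest by a wide margin; the log2 difference from siLuc was −0.79 (95% counting interval −0.94 to −0.63) and from untreated −0.63. Sc5d stood at 16.1, 19.4 and 12.3 CPM on 149, 145 and 118 counts, a difference of −0.66 (−1.02 to −0.30) from siLuc. Sqle (176.8, 150.1 and 100.6 CPM in untreated, siLuc and siLin28a cells), Cyp51 (108.4, 148.8 and 100.9) and Nsdhl (51.9, 54.7 and 37.2) were each close to the fold threshold, at −0.58, −0.56 and −0.56 against siLuc. The siLin28a library was the lowest for each of them. Cyp51 differed between the references, being 0.46 higher in siLuc than in untreated cells, and at −0.10 against untreated.

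Against untreated cells 5 cholesterol genes were at least 1.5-fold lower, where 5.07% of all transcripts were: Sqle (−0.81), Lss (−0.67), Dhcr7 (−0.66), Acat2 (−0.65) and Sc4mol (−0.63). Only Abca1 was that much higher, where 7.43% were. Among the 25 genes Sc4mol alone was that much lower than both references, where 1.65% of 8813 transcripts were. Lss had 144.0, 123.7 and 90.8 CPM in untreated, siLuc and siLin28a cells, and Acat2 88.7, 78.8 and 56.6, each with siLin28a lowest. Dhcr7 had 101.9, 69.6 and 64.6 CPM, so most of its difference was already present with siLuc (−0.55). Ebp, Hsd17b7, Fdft1 and Lbr, the other ER enzymes, were between −0.05 and −0.37 against siLuc.

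**Figure D3:**
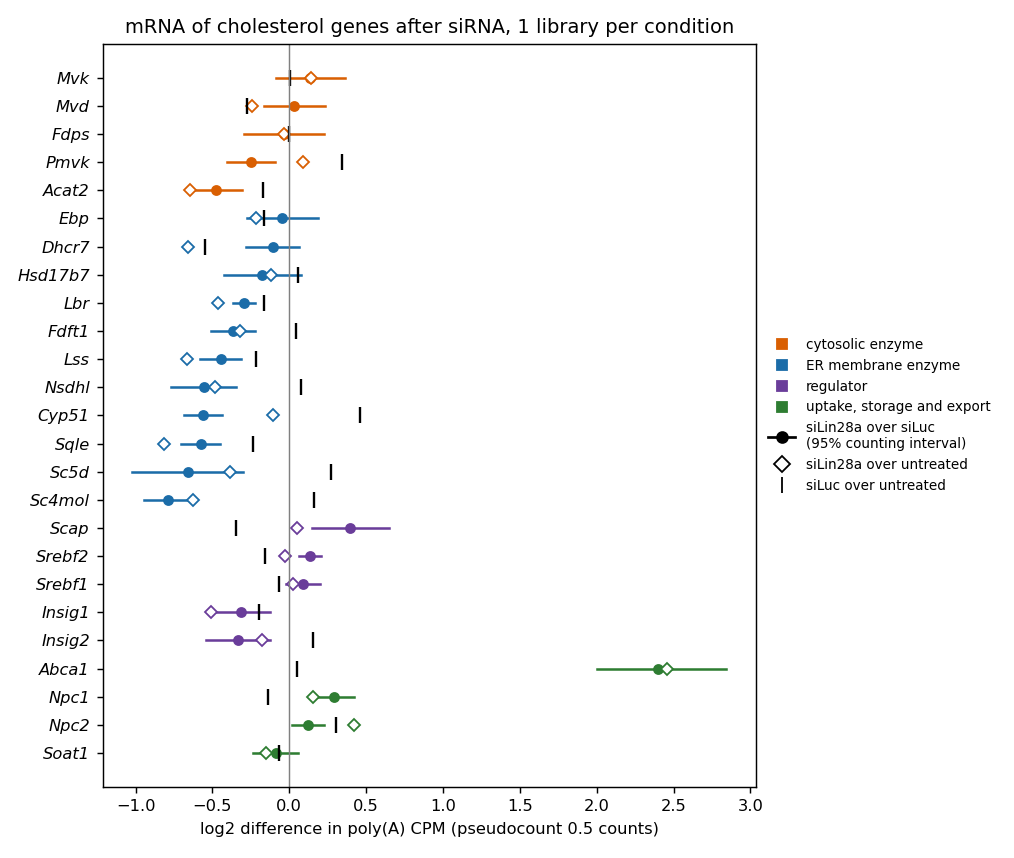
Log2 difference in poly(A) CPM (x axis) for the 25 cholesterol genes that passed the count filter, siLin28a over siLuc (filled circles with 95% counting intervals), siLin28a over untreated (diamonds) and siLuc over untreated (bars), 1 library per condition. All blue circles and diamonds lie below 0, while Abca1 stands alone near 2.4.

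Abca1 was the 1 gene past 1.5-fold higher. It stood at 7.23 CPM in untreated cells, 7.49 with siLuc and 39.9 with siLin28a, on 67, 56 and 383 counts, so that both references were alike and the siLin28a library was far above them. The log2 difference from siLuc was 2.40 (95% counting interval 2.00 to 2.84), a 5.28-fold increase. It passed the count filter only through the siLin28a library, and had no row in the footprint table. The other genes of uptake and storage differed little, with Npc1 at 0.29, Npc2 at 0.12 and Soat1 at −0.09 against siLuc.

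The regulators, whose products act as proteins cleaved or held at the ER, differed by less than 1.5-fold between the 3 libraries of the poly(A) table. Srebf2 stood at 406.6, 363.9 and 399.7 CPM in untreated, siLuc and siLin28a cells and Srebf1 at 167.0, 159.6 and 169.8. Scap was at 0.40 against siLuc but 0.05 against untreated. Insig1, itself a known SREBP target, was at −0.31 against siLuc and −0.51 against untreated, and Insig2 at −0.33 and −0.17. With the footprint table's tally Insig2 was at −0.64 against siLuc, past 1.5-fold.

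Because the ER enzyme mRNAs were lower together, their promoters were searched for motifs linked with SREBP control. RefSeq promoter windows (GRCm38.p6, 250 bases before to 50 after the annotated start) matched 23 of the 27 genes; Fdft1, Fdps, Npc1 and Sqle had no entry. Letters were searched on both strands. CCAAT, the letters of the box bound by NF-Y, a factor that acts beside SREBP at many sterol genes, was in all 9 matched ER enzyme genes and 5 of 6 cytosolic ones, and in 20 of the 23 genes, against 41.1% of all 27025 genes. By window it was in 21 of the 31 of these genes, against 37.4% of all 32851 windows. The sterol element letters TCACCCCA were in 2 of the 23 genes (1.77% of all genes) and 2 of the 31 windows (1.56% of all windows). CACCCCAC was also in 2 genes (3.3%) and 2 windows (2.87%), with Hmgcs1 holding both at overlapping positions. None of these 3 genes is an ER membrane enzyme. A match describes letters only, not a bound site. Nor does a missing match show that a site is absent, since other spellings of the sterol element were not searched. The ER enzyme genes Fdft1 and Sqle could not be searched at all. The windows below show the sterol element letters where found and CCAAT in the ER genes with the greatest mRNA or CLIP differences, with the motif in capitals.
Hmgcs1, chr13:119690204-119690231, plus strand: cgtcaccgtcTCACCCCActtcccaggt
Srebf2, chr15:82147097-82147124, plus strand: tgacgcaccaTCACCCCAtgagccgctt
Acat2, chr17:12960889-12960916, minus strand: ggatcctccaCACCCCACcctaacccga
Sc4mol, chr8:64733660-64733684, minus strand: ttagcacggaCCAATcactgcacgg
Sc5d, chr9:42264310-42264334, plus strand: aggcagccggCCAATcagcagccgg
Cyp51, chr5:4104712-4104736, minus strand: ctgtccgccaCCAATctggtcctga

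These windows lay 137 bases (Hmgcs1), 162 (Srebf2), 181 (Acat2), 96 (Sc4mol), 24 (Sc5d) and 29 (Cyp51) before the annotated start. In Sc5d the CCAAT letters read on the strand opposite to the gene, and in the others on the gene's strand. Sc4mol held CCAAT at 3 places in its window.

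Ribosome footprints separated the classes in the direction opposite to the mRNA medians of the poly(A) table. The ER median less the cytosolic one was 0.74 for footprints, and 0.49 without Fdps, Idi1 and Fdft1, whose poly(A) tallies differed between tables. For mRNA it was −0.41, and −0.39 without the same genes, but only −0.09 with the footprint table's tally. After Lin28a siRNA the 6 cytosolic enzymes in the footprint table had a median log2 change of −0.71, the 10 ER membrane enzymes 0.03, the 5 regulators 0.30 and the 3 measured genes of uptake and storage 0.71, against −0.21 for all 6323 transcripts that passed the filter. Of the 24 cholesterol genes, all of which passed, 5 rose past 1.5-fold, where 14.4% of all transcripts did, and 6 fell past it, where 26.9% did. The 5 higher were Npc1, Scap, Soat1, Insig2 and Npc2. The 6 lower were 4 cytosolic enzymes (Idi1, Fdps, Mvd and Acat2) and the ER enzymes Lss and Nsdhl.

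Cytosolic enzymes lost footprints at several steps. Idi1 went from 70.8 CPM with siLuc to 35.8 with siLin28a (log2 change −0.98, 95% counting interval −1.22 to −0.75), Fdps from 272.5 to 149.0 (−0.87), Mvd from 32.1 to 19.6 (−0.71) and Acat2 from 137.6 to 84.6 (−0.70). Mvk and Pmvk moved less, at 0.30 and −0.18. In the ER group Lss went from 69.9 to 37.5 CPM (−0.90) and Nsdhl from 65.0 to 41.3 (−0.65). With TMM scaling, which raised every footprint change by the same amount, 3 genes were at least 1.5-fold lower (15.6% of all transcripts) and the ER median was 0.26.

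For storage and lysosomal genes footprints rose past the fold while mRNA did not. Npc1 went from 384.3 CPM with siLuc to 843.7 with siLin28a, a log2 change of 1.135 (95% counting interval 1.07 to 1.20) and the greatest of the 24 genes. Soat1 went from 195.1 to 318.4 CPM (0.71) and Npc2 from 223.4 to 356.1 (0.67). Among the regulators Scap went from 18.9 to 31.1 CPM (0.72) and Insig2 from 12.0 to 19.6 (0.70), the latter on only 91 and 117 footprints.

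**Figure D4:**
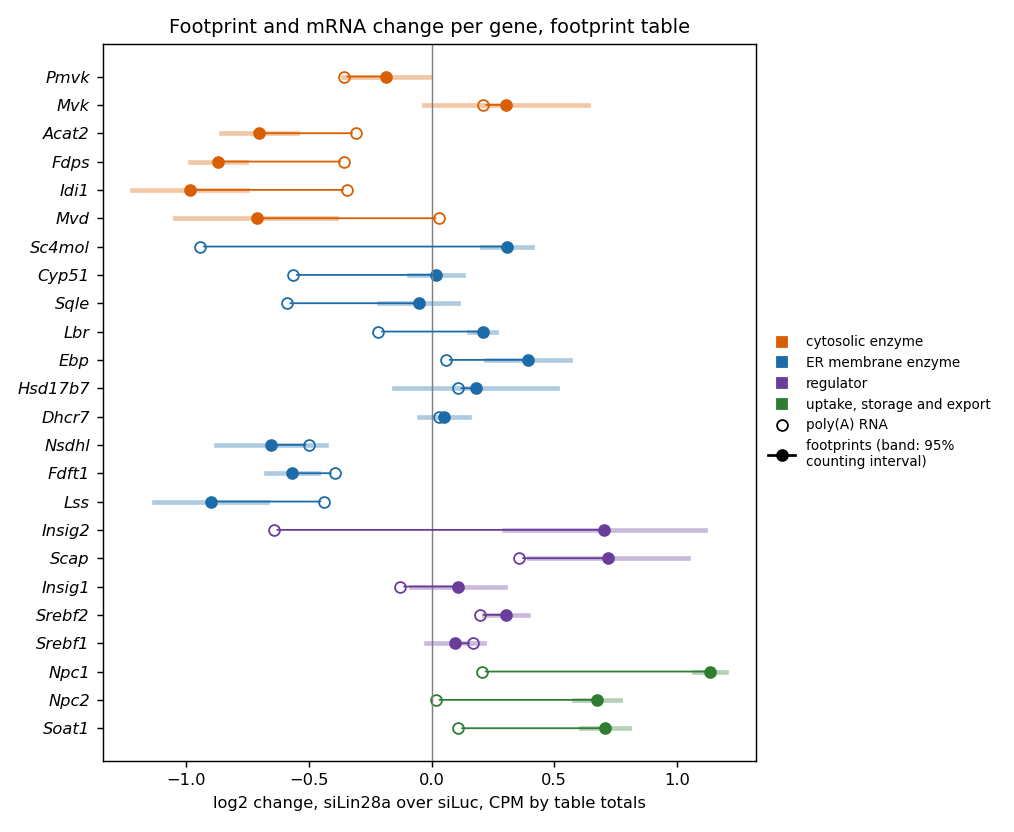
Log2 change from siLuc to siLin28a (x axis, CPM by table totals) of poly(A) RNA (open circles) and footprints (filled circles with 95% counting intervals) for the 24 cholesterol genes of the footprint table, 1 library per condition. For most ER membrane enzymes and all genes of uptake and storage the filled circle lies to the right of the open one, and for 4 of the 6 cytosolic enzymes to the left.

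Ribosome density, taken as footprint change less poly(A) change within 1 table and set to 0 at the median transcript, was higher after Lin28a siRNA for 19 of the 24 cholesterol genes. Of the 24, 8 were at least 1.5-fold higher, where 18.6% of all 7799 transcripts were, and 0 at least 1.5-fold lower, where 17% were. The 10 ER membrane enzymes had a median of 0.42, with 9 of 10 above 0, and the 6 cytosolic enzymes a median of −0.24, with 4 of 6 below 0. Without centring, 5 cholesterol genes gained past the fold, where 11.1% of all transcripts did, and 2 lost, where 27.3% did. The cytosolic median rested on genes whose poly(A) tallies disagreed between tables: without Fdps, Idi1 and Fdft1 it was 0.07.

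The ER enzymes past 1.5-fold were those with the most CLIP enrichment. Sc4mol reached a density change of 1.47 (95% counting interval 1.24 to 1.69): its footprints went from 211.1 to 261.3 CPM while its poly(A) reads in that table fell from 67.3 to 35.0 CPM. Cyp51 kept its footprints (199.7 and 202.3 CPM) with fewer poly(A) reads (90.7 and 61.3), a density change of 0.80. Sqle behaved alike, with 95.2 and 91.8 footprint CPM, 101.7 and 67.5 poly(A) CPM and a density change of 0.75. For these 3 enzymes the siLin28a library thus held less mRNA at similar or greater footprint levels. Lbr had 744.8 and 860.4 footprint CPM on 282.3 and 243.0 poly(A) CPM, a density change of 0.64.

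Outside the ER enzymes, Insig2 had the greatest density change, 1.56, on few counts and with a wide interval (1.01 to 2.11). Npc1 followed at 1.145, Npc2 at 0.87 and Soat1 at 0.81. Srebf2 was at 0.32 and Srebf1 at 0.14. The lowest values were those of the cytosolic enzymes Mvd (−0.53), Idi1 (−0.42) and Fdps (−0.30) and the ER enzyme Lss (−0.24).

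**Figure D5:**
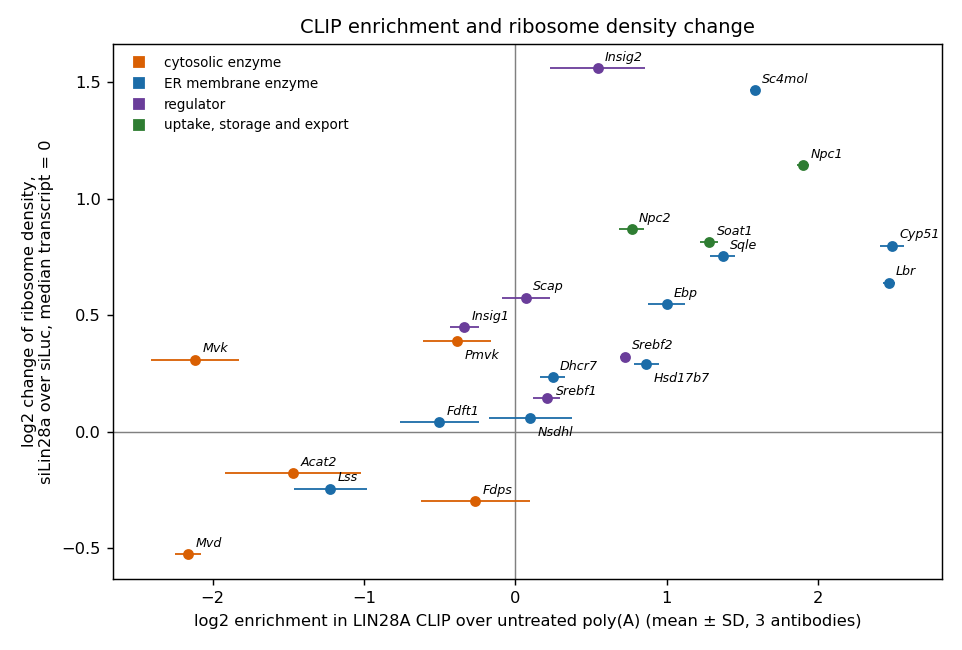
Log2 enrichment in LIN28A CLIP (x axis, mean ± SD of 3 antibodies) against the log2 change of ribosome density after Lin28a siRNA (y axis, median transcript at 0) for the 23 cholesterol genes with both values. Mvd, Acat2 and Lss lie at the lower left and Sc4mol and Npc1 at the upper right, with Mvk and Insig2 off this trend.

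Genes with more LIN28A CLIP had the larger density changes. Among the 23 cholesterol genes with both values Spearman's rho was 0.743 (0.717 over 21 without the disagreeing tallies), and over all 7111 transcripts it was 0.484. These are descriptions across genes, which are not independent, and both measures are ratios to the gene's poly(A) tally, taken from different libraries, and share its length. Of 10 CLIP-enriched cholesterol genes 7 gained at least 1.5-fold in density, against 37.7% of the 2285 CLIP-enriched transcripts. Their median density change was 0.78, against 0.36 for those transcripts. Of the 5 depleted genes 0 passed in either direction (median −0.18). For the 2516 CLIP-depleted transcripts of the whole series, gains past 1.5-fold made up 4.29% and losses 30.6% (median −0.32). With only 5 genes, no departure from these shares can be read.

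Even without Lin28a siRNA, ribosomes were denser on the ER membrane enzymes. In siLuc cells the log2 ratio of footprint to poly(A) CPM, set to 0 at the median transcript, had a median of 1.28 for the 10 ER enzymes, 0.43 for the 6 cytosolic enzymes and 2.30 for Npc1, Npc2 and Soat1. Dhcr7 was highest at 2.85 and Mvk lowest at −0.34. Here the poly(A) reads of the footprint table were again the denominator; with the poly(A) table's tally the cytosolic median was 1.07 and the gap between classes 0.25 in place of 0.85, and without the disagreeing tallies the gap was 1.11.

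A wider list of 67 genes around the route was examined for context. Of the 50 measured in CLIP, 22 were enriched and 10 depleted, beside 34.6% and 33.3% of all transcripts. Of 59 that passed the mRNA filter 3 rose and 3 fell past 1.5-fold after Lin28a siRNA, which is near the 7.62% and 4.5% of all transcripts. Among SREBP processing and sterol-regulated degradation genes 5 of 9 were CLIP-enriched and 2 of 9 were depleted. In density 5 of 8 gained at least 1.5-fold and 1 of 8, Vcp (−1.07), lost that much. Of 5 lipoprotein receptor and uptake genes with a density value, 5 gained at least 1.5-fold. Of all transcripts 18.6% did, and of the CLIP-enriched ones 37.7%. Of 5 efflux and liver X receptor genes measured in CLIP, 0 were enriched and 4 depleted, whereas Abca1 was enriched. Isoprenoid branch genes were enriched in 4 of 11 and depleted in 1, and sterol transfer and storage genes were enriched in 3 of 9 and depleted in 1.

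High CLIP values in that list were those of Zmpste24 (2.91 ± 0.12), the protease that trims prenylated prelamin, and Osbpl8 (2.05 ± 0.16), an ER-anchored lipid transfer protein. Lowest were Gramd1a (−2.11 ± 0.64), the liver X receptor gene Nr1h2 (−1.73 ± 0.07) and the cytosolic citrate lyase gene Acly (−1.69 ± 0.13; SD, n = 3 throughout). For mRNA against siLuc the highest were the receptor gene Lrp1 (0.71), the exporter gene Abcg1 (0.63) and Nr1h2 (0.60). The lowest were the sterol carrier gene Stard4 (−0.83), Arl4c (−0.80) and the cholesteryl ester hydrolase gene Nceh1 (−0.79). Stard4 is a known SREBP target. Arl4c and Abca1, both known liver X receptor targets, differed from siLuc in opposite directions. Of 8 efflux and liver X receptor genes that passed the mRNA filter, 2 were at least 1.5-fold higher and 1 lower, beside 7.62% and 4.5% of all transcripts. Besides Abcg1, Nr1h2 and Arl4c, these were Apoe (0.42), Rxrb (0.02), Lpcat3 (−0.05), Mylip (−0.06) and Rxra (−0.39).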

How the data were processed

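Deposited tables of the authors were the start; mm9, GSNAP and bedtools are named per the submitters' processing notes, without roles or versions, and the counting rule and use of strand were not stated in any source used. The authors deposited whole read counts per RefSeq transcript, and RPKM beside them in the poly(A) table, per the file headers. Deposited per-sample columns that were not used numbered 18. Rows were matched by symbol.

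CLIP was tested on all 7820 transcripts with edgeR 4.0.16 (R 4.3.3; TMM, filterByExpr, Benjamini-Hochberg, threshold 0.05), 3 CLIP libraries against 1 untreated poly(A) library, which was assumed to vary like them. Log2 values per antibody used a pseudocount of 0.5 counts. On simulated counts for these 7820 transcripts, 16.4% of 1.5-fold, 83.6% of 2-fold and 100% of 4-fold changes were recovered, with 0 of the wrong sign. Only 67, 67 and 66 transcripts were changed, and all transcripts and libraries, the input included, were given the same variation. In the data far more transcripts were called and the variation of the input is unknown, so these rates may not carry over. The siRNA comparisons have 1 library per condition, hence no p-value: log2 ratios of CPM (pseudocount 0.5) with 95% counting intervals, on transcripts with 200 counts over both libraries, or 50 in each assay for ribosome density, read against 1.5-fold. Log2 values shrink toward 0 at low counts.

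The genes, classes and wider lists were chosen with earlier results of these data known, so no test was run over a list. Each gene of the set was named; values in each sample were given for those past 1.5-fold or at the 3 highest or lowest CLIP values, and for the wider lists the 3 highest and 3 lowest in CLIP and mRNA, of which 1 is not reported here. Alternatives were DESeq2 1.42.0, other scalings, filters, pseudocounts, inputs and tallies, and each CLIP library left out.

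Poly(A) reads were tallied differently between tables. Over 7181 transcripts, the footprint table's tally was within 1.25-fold of the coding share for 79.4%, and of the exon tally for 41.2%. Fdps (222 counts in the poly(A) table, 2158 in the footprint table, siLuc), Idi1 (21 and 292) and Fdft1 (786 and 1423) had the highest ratios between the tallies among these genes. Only these 3, more than 2-fold above the median ratio, were left out as disagreeing. Of all transcripts, 491 of 7931 had a footprint-table tally that far above it. Acat2 (589 and 734) was kept. Its ratio was 1.25 beside a coding share of 0.32, further apart than for Fdft1 (1.81 beside 0.88). The cause was not tested.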

Additional observations from a re-analysis of the deposited data

How the results depend on the processing

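No paired analysis was possible because the conditions have 1 library each and the labels give no replicate numbers. Of the recomputed class medians and their differences, 57 stayed within the error of the main value and 15 moved; of the recomputed counts, 86 stayed within 1.5 times the main count and 14 did not. ER enzymes depleted in CLIP numbered 1 to 2 when a CLIP library was left out, and 1 with DESeq2 or without the 3 disagreeing tallies (an alternative chosen after seeing the data). The CLIP median of the ER enzymes was 0.88 to 1.01 when a library was left out, 0.63 by total counts and 0.65 on coding counts, where the cytosolic median was −1.97; the gap between classes stayed between 2.26 and 2.83. By total counts Dhcr7 (−0.12), Nsdhl (−0.25), Scap (−0.29) and Srebf1 (−0.16) changed sign, and with 1 CLIP library left out Nsdhl ranged from −0.035 to 0.24 and Scap from −0.022 to 0.14, both negative without 35L33G. With the footprint table's poly(A) tally, the mRNA median of cytosolic enzymes was −0.33, the class difference −0.090, and 3 genes were 1.5-fold lower; 0 were higher, since Abca1 has no row there. Genes past the fold in mRNA numbered 2 higher without a filter, 0 lower at 2-fold and 5 lower against untreated. The footprint median of the ER enzymes was 0.26 with TMM and that of the cytosolic ones −0.44 without disagreeing tallies; footprint counts were 1 higher and 0 lower at 2-fold and 3 lower with TMM. The density median of cytosolic enzymes was −0.45 by total counts, −0.0013 with the poly(A) table's tally and 0.067 without disagreeing tallies; 5 genes were higher and 2 lower by total counts, and 1 lower with the poly(A) table's tally. Basal density medians were 1.47 (ER, without disagreeing tallies) and 1.07 (cytosolic, poly(A) table's tally), and their differences 1.11 and 0.25. Low depth limits Sc5d (118 to 149 poly(A) counts), Abca1 and Insig2.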

Other observations

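Fatty acid synthesis draws on the same acetyl-CoA and is also under SREBP control. Of 11 genes of this list measured in CLIP, 7 were enriched and 2 depleted, beside 34.6% and 33.3% of all transcripts. The membrane desaturases Scd2 (2.05 ± 0.13), Scd1 (1.91 ± 0.11) and Fads1 (1.62 ± 0.04) and the elongases Elovl6 (1.68 ± 0.07) and Elovl5 (1.47 ± 0.07) were enriched. Fads2, also a membrane desaturase, lay below the input at −0.45 ± 0.21 and did not pass. The cytosolic Acly (−1.69 ± 0.13) and the fatty acid synthase gene Fasn (−0.99 ± 0.08) were depleted (SD, n = 3 each). The cytosolic carboxylase gene Acaca, which commits acetyl-CoA to fatty acids, was enriched at 1.00 ± 0.15 (SD, n = 3).

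After Lin28a siRNA, ribosome density was at least 1.5-fold higher for 4 of 13 fatty acid genes and lower for 5, beside 18.6% and 17% of all transcripts. It was 1.38 for Fads1 and 1.01 for Elovl6 on the log2 scale, and −1.31 for Acly, −1.19 for Fasn, −1.06 for Acss2 and −0.93 for Acaca. Scd2 and Scd1, with the highest CLIP values of the list, were at 0.07 and 0.03. Each of these values rests on 1 library per condition.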
